A study of Macaca fascicularis with 23 samples.

Results

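S100A2, S100A4, S100A6, S100A10, S100A11, S100A13, S100A14 and S100A16 are the members of the S100 family of chromosome 1 described here. They were chosen by name, with earlier results of these data known. All 8 were present among the 8415 genes analysed, 7 under their symbol and S100A11 through its gene ID, 102142547, which RefSeq pairs with that symbol. Their RNA was measured by SC3-seq, in which amplified cDNA is sequenced at its 3′ end, in 23 libraries of cynomolgus monkey (Cm) cells. Of these, 21 came from pluripotent stem cells (PSCs), namely 7 lines that were each sampled in 3 media, and 2 were somatic libraries. Expression is given as RPM, reads scaled to the library total, and changes are on the log2(RPM + 1) scale, which understates the change of low genes.

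CMK6, TRSK and CMK9 are ESC lines. Of the iPSC lines, L3 and L6 came from liver cells and S6 and S12 from stomach cells of the same female foetus, by episomal vectors for KLF4, L-MYC, SOX2, OCT3/4, LIN28 and a p53 shRNA, so the 4 iPSC lines are 1 individual. Primed cells grew in bFGF/KSR medium. Naïve-like cells carried Dox-inducible hKLF2 and hNANOG transgenes on PiggyBac vectors with an EOS reporter, and grew in K5cLD, a medium with Gö6983, forskolin, kenpaullone, CHIR99021, SB590885, LIF and Dox. Differentiated cells were naïve-like cells moved to K5c, which lacks LIF and Dox. Primed and naïve-like cells thus differ in transgenes as well as in medium. PSCs were moved from mouse embryonic fibroblast feeders to laminin before RNA was taken. Somatic cells of the foetal liver and stomach were cultured with hepatocyte growth factor and epidermal growth factor, with 1 library each.

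S100 proteins are small calcium-binding proteins with EF-hands. Most work as dimers that change shape on binding calcium and then hold a partner protein, such as an annexin, a myosin or p53. Most of their genes lie close together on chromosome 1 of primates, in and next to the epidermal differentiation complex, and several are known as abundant products of fibroblasts and epithelia.

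Of the members, 6 passed the filter on low values (above 4 on the log2 scale in at least 1 PSC library) and entered the fit of 2776 genes. They were S100A4, S100A6, S100A10, S100A11, S100A13 and S100A16. S100A2 and S100A14 did not pass. S100A10, S100A11 and S100A13 were above this level in all 21 PSC libraries. S100A4 was above it in 4 of 7 primed, 2 of 7 naïve-like and 0 of 7 differentiated libraries, S100A6 in 4, 3 and 2, and S100A16 in 7, 4 and 3.

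Some S100 genes were lower in naïve-like than in primed cells and others were not called. Of the 6 members tested, 3 were called lower (limma, Benjamini-Hochberg adjusted p under 0.05) and 0 higher, beside 8.18% of all tested genes called lower. The 3 were S100A16, S100A11 and S100A13. The median log2 fold change of the 6 members was -1.28, against 0.06 over all tested genes. Between differentiated and primed cells, 4 of 6 were called lower, S100A16, S100A13, S100A4 and S100A10, beside 7.13% of all tested genes. Their median was -1.81, against 0.05 over all tested genes. Both comparisons share the primed libraries. The members were chosen with earlier results of these data known, so these counts and medians are descriptions and not an independent test of the family. From naïve-like to differentiated cells, 0 of 6 were called in either direction by limma, beside 7.71% of all tested genes called lower. Only S100A10 had an unadjusted p under 0.05 there, at 0.0434, and the median was -0.64 against -0.02. This main fit did not pair the libraries of a line. With the line as a block, limma called 1 of 6 members between differentiated and naïve-like cells (550 of all tested genes). It called 6 of 6 between differentiated and primed cells (585) and 3 of 6 between naïve-like and primed cells (724).

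**Figure D1:**
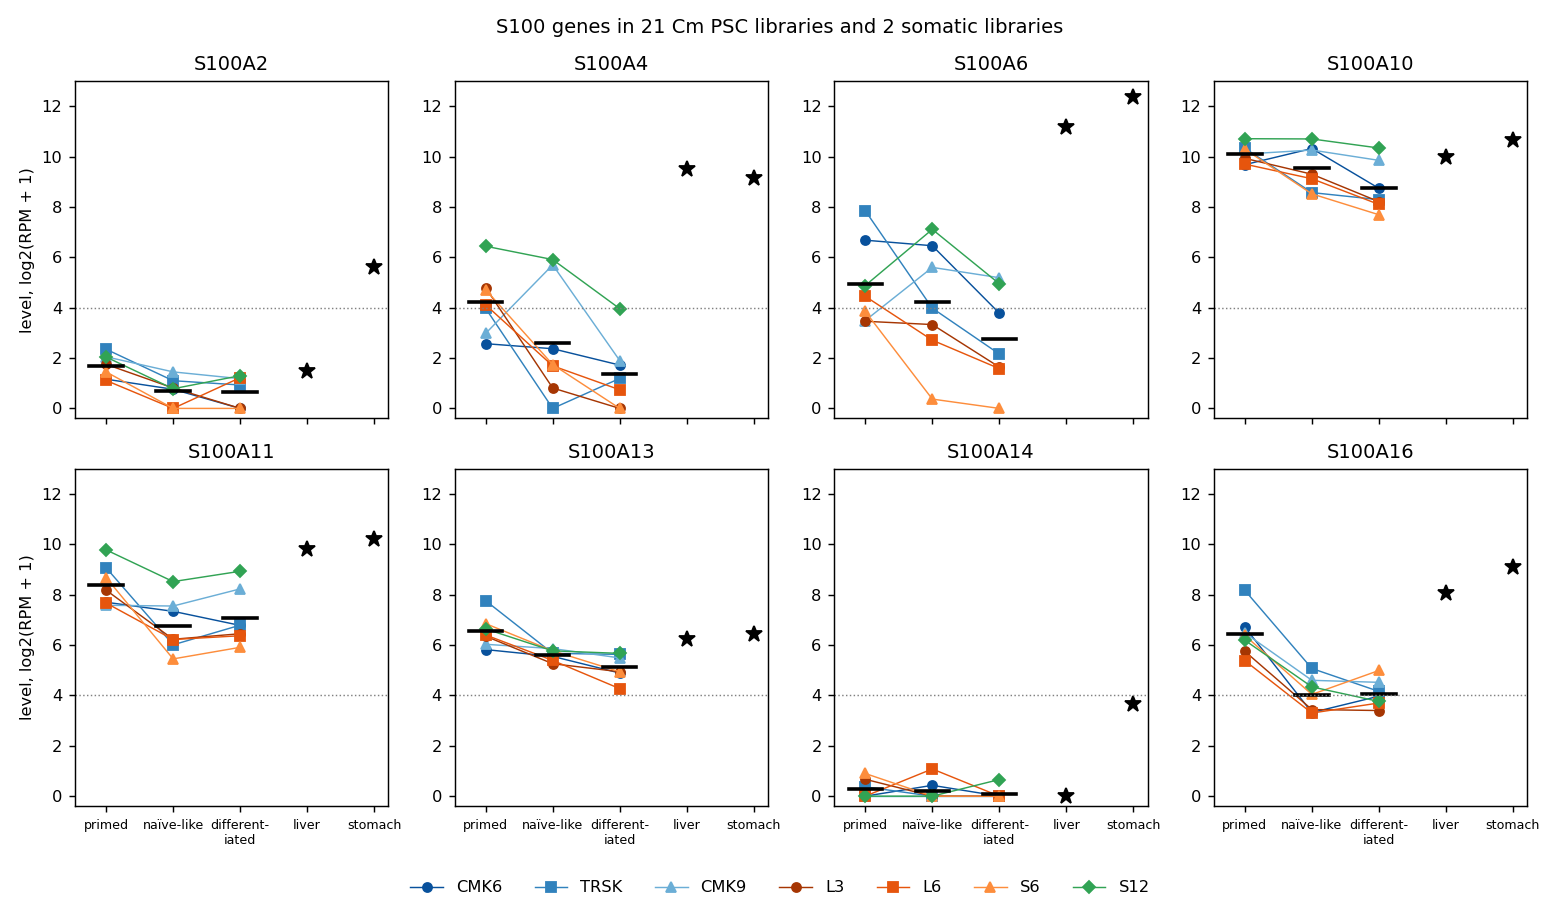
Level of each S100 gene as log2(RPM + 1) in 21 PSC libraries and the 2 somatic libraries, with 1 panel per gene. Coloured points joined by thin lines are the 7 cell lines, black bars are the means of each condition, stars are the somatic libraries, and the dotted line is the filter at 4. S100A16 separates primed from the other PSC libraries, S100A4 and S100A6 spread widely between lines, and S100A2 and S100A14 stay low outside the stomach library.

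S100A10, also known as p11, is the member that forms a complex with annexin A2 and does not respond to calcium. Its RPM in primed libraries had a lowest value of 818.7 (CMK6), a median of 1096 and a highest value of 1678 (S12). In the naïve-like state the range was 365.0 (S6) to 1668 (S12), with a median of 627.2. After withdrawal of LIF and Dox it was 205.9 (S6) to 1295 (S12), with a median of 313.1. The ranges of all 3 conditions overlapped. S100A10 carried 50% to 75.1% of the summed RPM of the 8 members in primed, 70.0% to 82.7% in naïve-like and 63.2% to 71.9% in differentiated libraries.

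The difference in S100A10 between naïve-like and primed cells was not called (log2 fold change -0.57, SE 0.37, 95% interval -1.33 to 0.20, adjusted p = 0.303). S100A10 was higher in naïve-like CMK6 and CMK9 than in the same lines when primed, and lower in the other 5 lines. In differentiated cells it fell by 1.36 against primed cells (SE 0.37, adjusted p = 0.015), and it was lower in 7 of 7 lines. The change from naïve-like to differentiated cells was -0.79 (SE 0.37, adjusted p = 0.17), also lower in 7 of 7 lines. This last change was called when the fit held the line as a block (adjusted p = 0.0246, range over its alternatives 0.0246 to 0.374). The fall against primed cells was not called without L3 (adjusted p = 0.06), S6 (0.0624) or TRSK (0.0509), within a range over its alternatives of 0.00065 to 0.0624.

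S100A11, a partner of annexin A1, showed a different course. Primed libraries held 190.4 (CMK9) to 875.5 (S12) RPM, with a median of 288.7. Naïve-like libraries held 42.75 (S6) to 365.1 (S12), with a median of 73.89. Differentiated libraries held 59.18 (S6) to 486.6 (S12), with a median of 108.7. The lowest primed library lay above 6 of 7 naïve-like and 5 of 7 differentiated libraries, and S12 was the library that overlapped in the naïve-like state.

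S100A11 fell by 1.62 on the log2 scale in naïve-like against primed cells (SE 0.47, adjusted p = 0.0193), a factor of 3.08, in 7 of 7 lines. Line by line it ran from -3.23 in S6 to -0.03 in CMK9. It was not called without L3 (adjusted p = 0.0627), S6 (0.0719) or TRSK (0.0791), within a range over its alternatives of 0.000968 to 0.0791. Differentiated cells had a log2 fold change of 0.31 against naïve-like cells (SE 0.47, adjusted p = 0.734), with higher values in 6 of 7 lines. Against primed cells the change was -1.31 (SE 0.47, adjusted p = 0.0649). That was called with the line as a block (adjusted p = 0.00518, range over its alternatives 0.00518 to 0.179), and also without CMK9 (0.0311) or S12 (0.0145).

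A pseudogene entry on chromosome 4, LOC102139487, followed S100A11 closely. Its RPM was 27.7% to 39.4% of that of S100A11 in all 23 libraries, with a median of 34.4%. S100A11 gave whole reads (within 0.02 read) in 0 of the 7 libraries where it had under 200 reads, whereas each other member did so in every such library. How reads were divided between the entries cannot be seen in RPM, so the level of S100A11 is uncertain. With the 2 entries added, an alternative chosen after seeing the data, S100A11 changed by -1.61 from primed to naïve-like cells (adjusted p = 0.0207), -1.31 from primed to differentiated cells (0.0663) and 0.30 from naïve-like to differentiated cells (0.745).

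**Figure D2:**
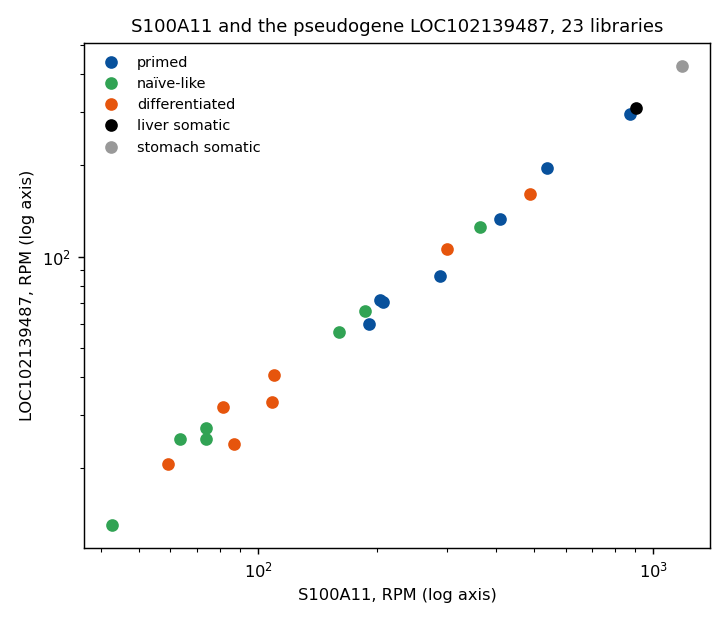
RPM of the pseudogene entry LOC102139487 against RPM of S100A11 in 23 libraries, both on log axes, with 1 point per library coloured by condition. The points follow 1 line, with the entry at 27.7% to 39.4% of S100A11 in every library.

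S100A4 binds non-muscle myosin and is widely used as a marker of fibroblasts. Primed libraries ranged from 4.923 (CMK6) to 85.93 (S12) RPM, with a median of 16.27. Naïve-like libraries ranged from 0 (TRSK) to 59.27 (S12), with a median of 2.336. Among differentiated libraries, L3 and S6 were listed at 0, the median was 1.275 and S12 was highest at 14.62. Outside the primed state, S12 and naïve-like CMK9, at 50.95, were the libraries with over 10 RPM.

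S100A4 fell by 2.87 from primed to differentiated cells (SE 0.82, adjusted p = 0.0204) and was lower in 7 of 7 lines. This was not called without L3 (adjusted p = 0.081), L6 (0.0672) or S6 (0.0859), within a range over its alternatives of 0.00252 to 0.0859. The change from primed to naïve-like cells was -1.62 (SE 0.82, 95% interval -3.32 to 0.07, adjusted p = 0.172). It was lower in 6 of 7 lines, and CMK9 went the other way with a change of 2.72. From naïve-like to differentiated cells the change was -1.24 (SE 0.82, adjusted p = 0.36).

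S100A6, also called calcyclin, varied more between libraries than almost any tested gene. Its SD over the 21 PSC libraries was 2.12 on the log2 scale, and 99.7% of tested genes had a smaller one. For S100A4 the SD was 2.03 (99.6%), and for S100A13, the steadiest of the 6, 0.76 (78.8%). Primed S100A6 ranged from 9.998 (L3) to 229.8 (TRSK) RPM, with a median of 20.92 and CMK6 at 101.2. Naïve-like libraries ranged from 0.292 in S6, which is 1 read, to 137.4 in S12, with a median of 14.78. Differentiated libraries ranged from 0 in S6 to 35.43 in CMK9, with a median of 3.46.

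The ranges of S100A6 overlapped between all conditions and no comparison was called. Naïve-like against primed cells gave -0.73 (SE 0.94, 95% interval -2.67 to 1.22, adjusted p = 0.641), and S12 and CMK9 were higher in the naïve-like state. Differentiated against primed cells gave -2.20 (SE 0.94, adjusted p = 0.123), with 5 of 7 lines lower. With the line as a block that change was called (adjusted p = 0.02, range over its alternatives 0.02 to 0.33). Differentiated cells were below naïve-like cells in 7 of 7 lines, with a mean change of -1.47 (SE 0.94, adjusted p = 0.343).

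S100A13 takes part in the release of FGF1, a growth factor without a signal peptide. It was 55.69 (CMK6) to 215.4 (TRSK) RPM in primed libraries, with a median of 83.67. The naïve-like libraries were close together, at 37.38 (L3) to 56.99 (CMK9), with a median of 50.02. Differentiated libraries held 18.31 (L6) to 49.99 (S12), with a median of 29.75, and every one was below every primed library. The share of all tested genes that separate in this way was not determined.

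S100A13 fell by 0.94 from primed to naïve-like cells (SE 0.24, adjusted p = 0.00902) and by 1.43 from primed to differentiated cells (SE 0.24, adjusted p = 0.000288), in 7 of 7 lines each. Both were called in all 16 alternatives. The change from naïve-like to differentiated cells was -0.49 (SE 0.24, 95% interval -0.99 to 0.01, adjusted p = 0.194), and it was below 0 in 7 of 7 lines.

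S100A16, a member found in many tissues, separated the primed libraries from the others most clearly among the members. Primed libraries held 40.67 (L6) to 286.9 (TRSK) RPM, with a median of 82.51. Naïve-like libraries held 8.866 (L6) to 32.59 (TRSK), with a median of 15.47. Differentiated libraries held 9.563 (L3) to 30.78 (S6), with a median of 14.69. All 14 naïve-like and differentiated libraries were below the lowest primed library. How many of all tested genes separate like this was not determined.

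S100A16 fell by 2.42 from primed to naïve-like cells (SE 0.35, adjusted p = 5.6e-05), a factor of 5.35. By line, the change was between -3.39 in CMK6 and -1.86 in S12. From primed to differentiated cells it fell by 2.36 (SE 0.35, adjusted p = 9.37e-05). Both were called in all 16 alternatives. Between naïve-like and differentiated cells the change was 0.06 (SE 0.35, 95% interval -0.67 to 0.78, adjusted p = 0.947), with 3 lines higher and 4 lower.

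**Figure D3:**
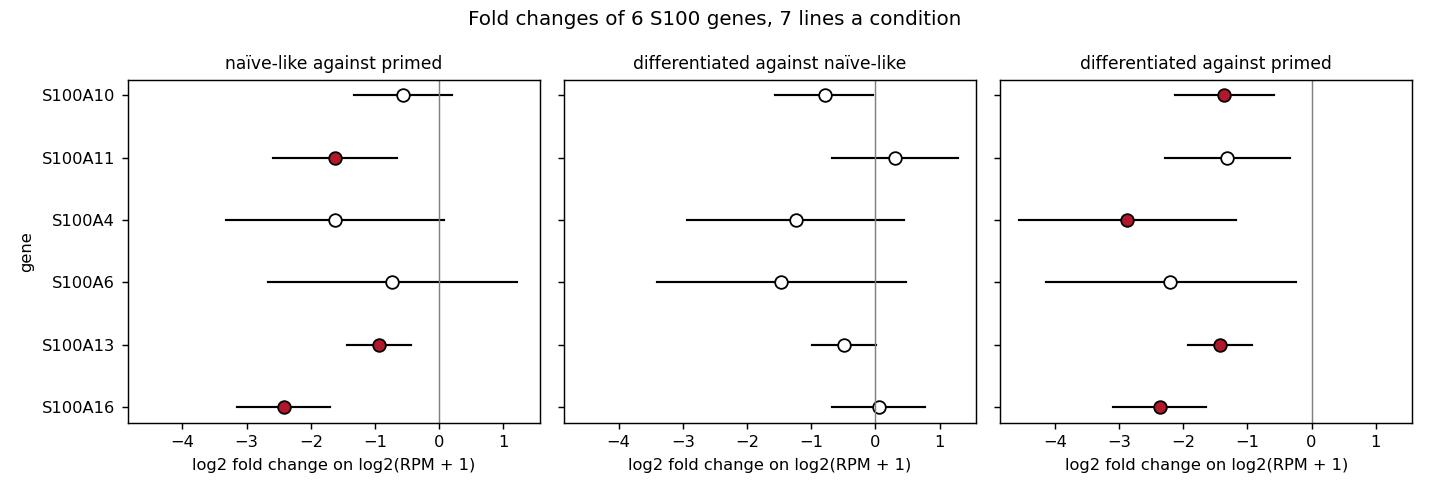
Log2 fold change of the 6 tested S100 genes in 3 comparisons of 7 lines a condition, with 95% intervals from limma. Filled points were called at an adjusted p under 0.05 in the main fit, which did not pair the libraries of a line. These were 3 of 6 for naïve-like against primed, 0 of 6 for differentiated against naïve-like and 4 of 6 for differentiated against primed cells.

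S100A2 and S100A14 are known mainly from epithelia, and S100A2 binds p53. S100A2 was at 1.162 (L6) to 4.115 (TRSK) RPM in primed libraries, which is 1 to 25 reads. It was at most 1.727 RPM in naïve-like and 1.462 in differentiated libraries, and was listed at 0 in 2 and 3 of them. When all 5981 genes above 0 in a PSC library were fitted, S100A2 was called lower in naïve-like (-1.0, SE 0.29, adjusted p = 0.0419) and in differentiated cells (-1.04, SE 0.29, adjusted p = 0.0416), both against primed cells. In either direction, that fit called 456 of the 5981 genes in the naïve-like comparison and 315 in the differentiated one. S100A14 had at most 2 reads in any PSC library and was listed at 0 in 4 of 7 primed, 5 of 7 naïve-like and 6 of 7 differentiated libraries. A difference in it was not detectable at this depth, since 3 reads correspond to 0.376 to 3.49 RPM in the 23 libraries.

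The leading line differed between members and conditions. In naïve-like cells S12 was highest for 4 of 7 members (S100A14 left out), S100A4, S100A6, S100A10 and S100A11. Over all tested genes S12 was the highest naïve-like library for 14.3%. CMK6 and CMK9 were the other libraries among the 3 highest for these 4 genes. S12 was also highest for 5 of 7 members in differentiated cells, S100A2, S100A4, S100A10, S100A11 and S100A13, beside 19.6% of all tested genes. Among primed libraries TRSK led for S100A2, S100A6, S100A13 and S100A16 (13.8% of all tested genes), and S12 for S100A4, S100A10 and S100A11 (22.1%). These shares are descriptions, since the genes of 1 library are not independent.

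**Figure D4:**
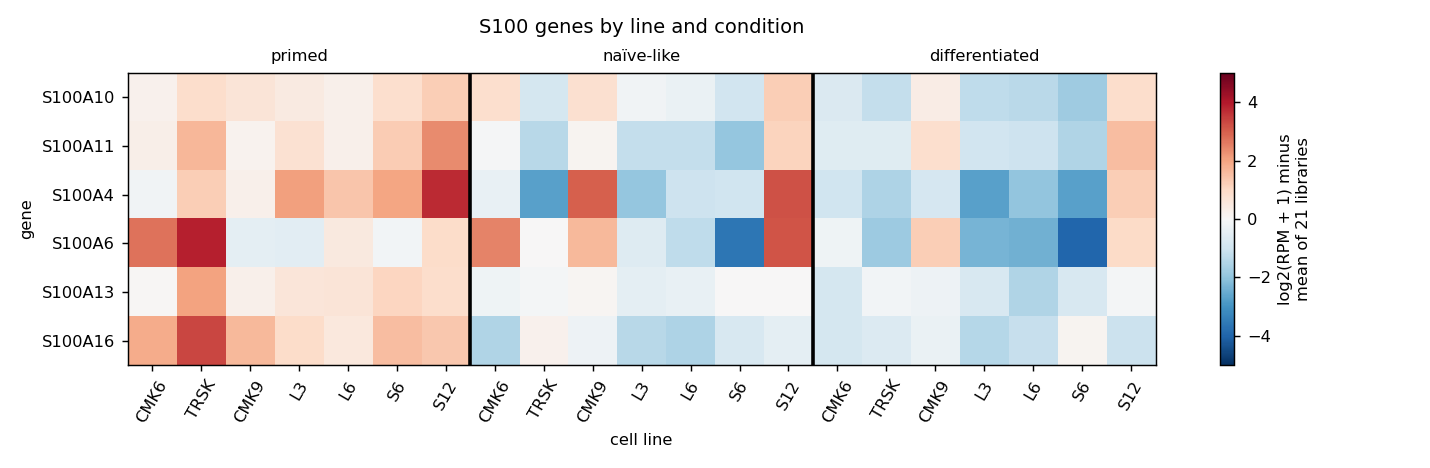
Level of the 6 tested S100 genes by line and condition, as log2(RPM + 1) minus the mean of the gene over 21 PSC libraries, with red above and blue below that mean. S12 stays above the mean for S100A10, S100A11, S100A4 and S100A6 in each condition, and S6 has the lowest values of S100A6 in the naïve-like and differentiated states.

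Genes of fibroblasts and mesenchyme varied with the conditions too, and 5 of 18 listed markers were analysed (COL1A2, COL6A1, COL6A2, PDGFRA and TWIST1). Their summed RPM was 83.7 to 652 in primed, 33.2 to 125 in naïve-like and 18.1 to 298 in differentiated libraries, with medians of 138, 75.5 and 158. It was 5160 in the liver and 5130 in the stomach library. None of the 5 was at 0 in all libraries of a group. The highest primed sums were in TRSK (652), S12 (318) and CMK6 (288), and the other 4 primed libraries had 83.7 to 138. In naïve-like cells CMK9 (125) and S12 (101) had the highest sums, and in differentiated cells TRSK (298) and CMK6 (229). The summed RPM of the S100 members was highest in S12 and TRSK when primed (2842 and 2577). The S100 sum was highest in S12 and CMK9 when naïve-like (2303 and 1596) and after differentiation (1890 and 1327). Differentiated TRSK and CMK6 had S100 sums of 493.8 and 595.1. COL6A1, a chain of collagen VI, fell by 2.06 from primed to naïve-like cells (SE 0.53, adjusted p = 0.00929) and by 1.67 from primed to differentiated cells (SE 0.53, adjusted p = 0.0379). COL1A2 and TWIST1 were also tested and were not called in the comparisons of conditions. All 3 tested markers had an unadjusted p under 0.05 in limma for naïve-like against primed cells. The part of fibroblasts and mesenchyme in the S100 results was not tested. In bulk RNA, fewer cells of a type and less RNA per cell cannot be told apart.

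Between ESC and iPSC lines none of the 6 tested members was called by limma. Of all tested genes, 1.59% were called when cells were primed, 0.72% when they were naïve-like and 0.612% after differentiation. The only member with an unadjusted p under 0.05 was S100A16 in primed cells, at 0.014, with ESC lines higher by 1.19 (SE 0.45, 95% interval 0.27 to 2.12, adjusted p = 0.179). S100A6 was higher in ESC lines by 1.85 in primed (95% interval -0.75 to 4.45), 1.97 in naïve-like (-0.63 to 4.57) and 1.66 in differentiated cells (-0.94 to 4.26), with adjusted p of 0.509, 0.649 and 0.59. The intervals are wide, with 3 ESC and 4 iPSC lines. The response of ESC and iPSC lines to conversion and to withdrawal was compared as an interaction. That called 0.0% of the tested genes in each case, with 133 and 109 of the 2776 genes at an unadjusted p under 0.05, and none of the members was among them.

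In the somatic libraries several S100 genes were far above the PSCs. S100A6 was at 2286 RPM in liver and 5348 in stomach, which is 9.94 and 23.3 times the highest PSC library (primed TRSK). S100A4 was at 719.0 and 572.7, or 8.37 and 6.67 times the highest PSC library (primed S12). S100A11 was also above all 21 PSC libraries in both, at 904.6 and 1182, though the liver value was 1.03 times that of primed S12.

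For S100A16 the stomach library (542.9) was above all 21 and the liver library (269.4) above 20. The stomach library alone held appreciable S100A2 (47.35) and S100A14 (11.67), at 11.5 and 10.5 times the highest PSC library, against 1.761 and 0 in liver. S100A10 (1005 in liver, 1601 in stomach) and S100A13 (75.72 and 85.29) lay within the PSC range. As background, 2916 genes were above 4 on the log2 scale in any of the 23 libraries. Of these, 11.5% were higher in the liver library and 15.3% in the stomach library than in every PSC library. This set also holds genes that passed only through a somatic library, S100A2 among them, which raises both shares.

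These are 1 library each, so no test was made. The 5 hepatocyte markers analysed (ALB, AFP, APOA2, AHSG and TF) were all listed at 0 in the liver library, so the label is not borne out by hepatocyte genes, and its collagen markers were high. Gastric markers (TFF1, TFF2, PGC and CLDN18) summed to 444 RPM in the stomach library, with PGC at 0. The 6 pluripotency markers analysed, of 12 listed, summed to 0.587 and 0.973 RPM in the liver and stomach libraries. Their sums were 785 to 2460 in primed, 1650 to 2620 in naïve-like and 1030 to 2140 in differentiated libraries. The medians were 1670, 2200 and 1570. In differentiated cells 4 of these 6 were called lower than in primed and than in naïve-like cells. Only 2 of 9 listed neural markers were analysed, ZIC1 and NES, and both were called higher than in naïve-like cells. Against primed cells limma called ZIC1 higher (2.59, SE 0.62, adjusted p = 0.00613) and did not call NES. The summed RPM of these 2 had a median of 347 after differentiation, beside 351 for primed cells and 195 for naïve-like cells. Of 4 tested markers of amnion, trophoblast and surface ectoderm, 0 were called in the 3 comparisons of conditions by limma, with at most 2 at an unadjusted p under 0.05 in each.

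Along chromosome 1, by the order of genes in RefSeq, the members run S100A13, S100A14, S100A16, S100A2, S100A4, S100A6, S100A11 and S100A10. The tested genes around them moved in both directions. Of the 40 tested neighbours beyond the outermost members, 5 were called higher and 3 lower from primed to naïve-like cells, with a median of 0.03. Over all 2776 tested genes, 307 were called higher and 227 lower there. From primed to differentiated cells 0 of the 40 were called higher and 3 lower, with a median of 0.02, beside 174 and 198 of all tested genes. From naïve-like to differentiated cells 1 of the 40 was called higher and 4 lower, beside 178 and 214 of all tested genes.

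The largest changes among called neighbours, naïve-like against primed, were 1.78 for CREB3L4 (SE 0.42, adjusted p = 0.00575), 1.28 for LYSMD1 (SE 0.40, adjusted p = 0.0279) and -0.89 for SELENBP1 (SE 0.23, adjusted p = 0.0107). Between differentiated and primed cells, SHC1 fell by 0.81 (SE 0.18, adjusted p = 0.00399), CERS2 by 0.77 (SE 0.17, adjusted p = 0.00399) and CGN by 0.64 (SE 0.20, adjusted p = 0.038). From naïve-like to differentiated cells THEM4 fell by 1.14 (SE 0.20, adjusted p = 0.000555), CGN by 0.71 (SE 0.20, adjusted p = 0.0214) and MLLT11 rose by 0.79 (SE 0.25, adjusted p = 0.0368). Between the outermost members, only SPRR1B and LOC102138041 were tested, and neither was called in the 3 comparisons (0 at an unadjusted p under 0.05 in limma). CDC42SE1, a neighbour beyond them, was lower in ESC than iPSC lines when primed (-1.35, SE 0.33, adjusted p = 0.042).

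**Figure D5:**
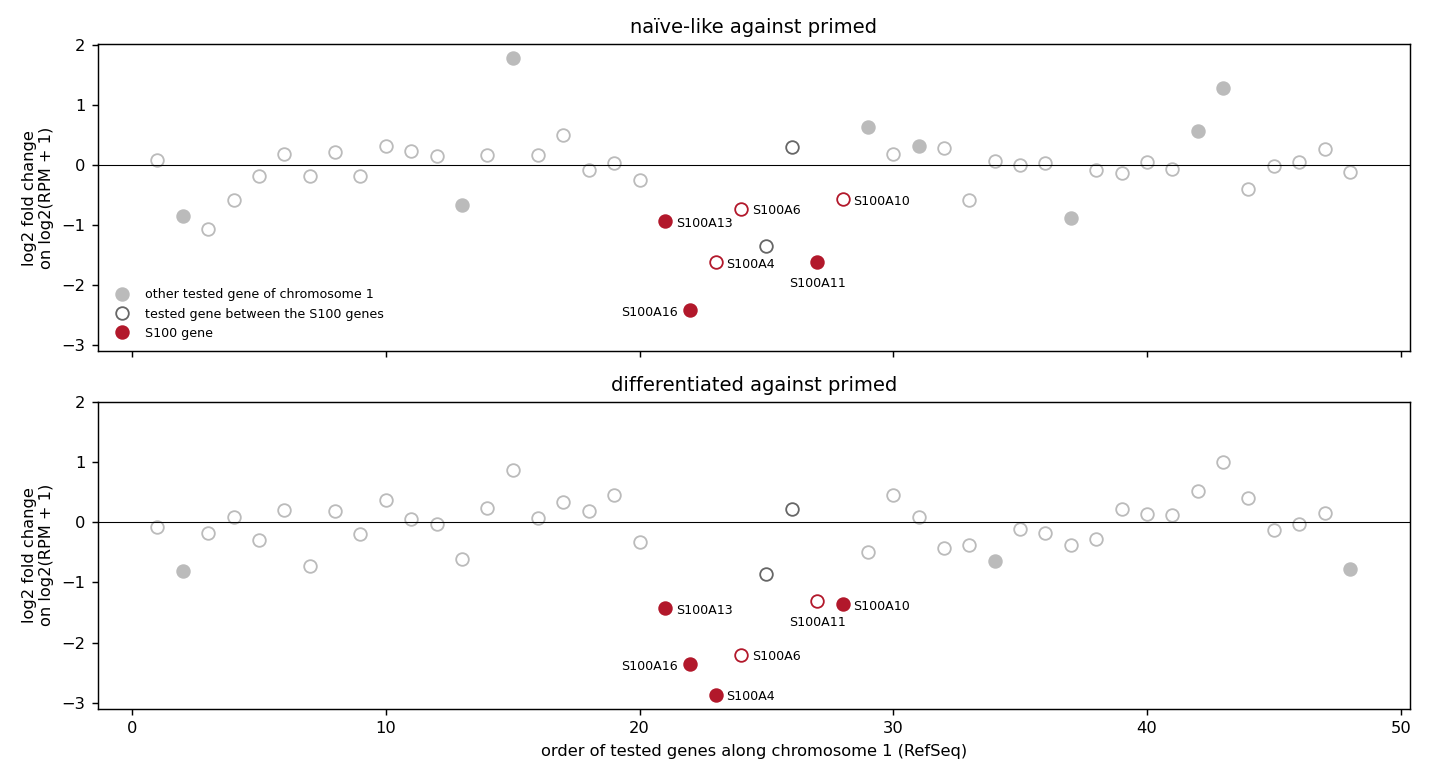
Log2 fold change of the tested genes around the S100 genes, in their order along chromosome 1, for naïve-like against primed (top) and differentiated against primed cells (bottom). Red points are S100 genes, dark grey points are tested genes between them and light grey points are the 20 tested genes beyond each end, and filled points were called. All 6 S100 genes lie below 0 in both panels, beside 43.7% (top) and 45.7% (bottom) of all tested genes. Both panels share the primed libraries, and the members were chosen with earlier results of these data known. The 40 genes beyond the members have medians of 0.03 and 0.02.

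Other genes of the pathway were few in the analysed part of the transcriptome. Of 30 listed partners and receptors of S100 proteins, 9 were analysed and 3 tested (CACYBP, MDM4 and TPM3), and 0 were called by limma in the 3 comparisons, with 1 unadjusted p under 0.05 for TPM3 in naïve-like against primed cells. Of 12 annexins, 2 were analysed and ANXA3 was tested. It fell by 1.3 from primed to differentiated cells (SE 0.42, adjusted p = 0.0399) and was called in no other comparison of conditions. Of 44 other genes of the epidermal differentiation complex, 26 were analysed and SPRR1B, a cornified envelope precursor, was tested. It was higher in ESC than iPSC lines in primed cells by 3.02 (SE 0.76, adjusted p = 0.0438).

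Of 12 other S100 genes, 9 were analysed and only S100P passed the filter. In the limma fit with no filter, S100A1 was called lower in differentiated than in primed cells (-1.56, SE 0.41, adjusted p = 0.026). It was not called in the other comparisons of conditions there, and S100A3 was called in none. S100P, named here after its values were seen, was not called in any comparison. Its level rested on naïve-like CMK6 at 314.0 RPM, with 4 naïve-like libraries listed at 0 and at most 2.324 RPM in primed libraries. The stomach library held 97.61 RPM of it.

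The genes with the most similar pattern were found by the root mean square difference of centred log2(RPM + 1) over the 21 PSC libraries, where 0 means the same course. For S100A10 they were ZYX (0.50), ANXA3 (0.53) and ZNF800 (0.55), and S100A11 was the 8th (0.61). After the pseudogene entry (0.12), S100A11 was nearest to LMNA (0.41) and TAGLN2 (0.61). S100A13 was nearest to TRIM56 (0.43), ITGB5 (0.44) and PTPN14 (0.47). S100A16 had larger differences, with TRIM56 (0.76), ECE1 (0.81) and S100A13 (0.85).

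S100A4 was nearest to KALRN (1.17), S100A11 (1.21) and LOC102139487 (1.23), and S100A6 to TAPBP (1.32), S100A10 (1.43) and LOC102139487 (1.46). These distances favour genes of small spread, and the libraries share their condition. Between S100A6 and S100A16, the least alike pair of members, the difference was 1.95.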

How the data were processed

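The authors made each SC3-seq library from 1 ng of RNA and read 75 bp of single-end sequence. The authors deposited RPM, reads scaled to the library total. Per the labels' processing notes the tools were cutadapt 1.3, TopHat 1.4.1 and Cufflinks 2.2.0, and counting did not use strand. The genome build is not stated in the labels. The 8415 genes analysed held 24.8% to 27.5% of each library's RPM. The paper reports many more expressed genes in PSC lines at the same threshold than the 2776 tested here. The genes analysed are thus a part of the transcriptome. Shares of all tested genes, adjusted p-values and nearest genes refer to this part only. An incomplete last row was dropped. Between 86.7% and 92.9% of values above 0 were whole multiples of the step of 1 read (within 0.02 read), so tests for counts were not used. The step gave depths of 861000 to 7986000 reads (median 3004000). A limit of 3 reads covers counting error only.

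Genes above 4 on the log2(RPM + 1) scale in at least 1 PSC library were fitted with limma 3.58.1 in R 4.3.3 (mean-variance trend, 21 libraries, 3 conditions, two-sided, Benjamini-Hochberg), with the rest in Python 3.11.15, numpy 2.4.6 and pandas 2.3.3. The fit was tested on simulated data. Lines are shared by conditions by their labels, and after removal of condition means libraries of the same line correlated at 0.269 on average (0.0304 to 0.561, 21 pairs) and different lines at -0.0446. Libraries were numbered by condition, so a preparation batch and the condition cannot be told apart. P-values of the main fit measure the spread between lines within a condition, since libraries of a line were not paired there. Baseline differences between lines thus enter the error. With the line as a block, the SE for differentiated against primed cells was 0.24 for S100A10 (0.37 in the main fit) and 0.31 for S100A11 (0.47). Because the 4 iPSC lines came from 1 foetus, this is not a spread between independent individuals. Members and lists were chosen with earlier results of these data known. Named genes are the members, the called genes of each list (at most 3 a comparison), and the 3 nearest in pattern. Alternatives were a pseudocount of 0.1, a stricter filter, no filter, quantile normalization, library centring, no trend, the line as a block, 2 conditions in the fit, each line left out and, chosen after seeing the data, S100A11 with its pseudogene entry. RefSeq (T2T-MFA8v1.1) gave symbols and gene order only.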

Additional observations from a re-analysis of the deposited data

Results flagged for a closer look

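S100A14 had a library far from the others of its condition in 2 of 24 groups examined (8 genes in 3 conditions), where about 1 in 20, or 1.2, would be marked by chance. On the log2(RPM + 1) scale, the gap to the nearest library was 0.601 of the range for the highest naïve-like library, L6. That library had 1.108 RPM, which is 1 read, against 0.3462 RPM in the next. The gap was 1.0 of the range for the highest differentiated library, S12 (0.5846 RPM, which is 2 reads, with the other 6 libraries at 0). Both were past Dixon's critical value. Both rest on 1 or 2 reads.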

How the results depend on the processing

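For the 6 tested members in the 3 comparisons of conditions, 265 of 285 alternative values kept their direction and their side of the threshold. With the cell line as a replicate block, 1 of the 6 members was called between differentiated and naïve-like cells (0 without it). Over all tested genes 550 were called there (392 without it). Between differentiated and primed cells the block gave 6 of the 6 members (4 without it) and 585 genes (372 without it). The block changed no other call of a member than the 3 given with S100A6, S100A10 and S100A11. With no filter, 2 of the 6 members tested with the filter were called between differentiated and primed cells, and S100A2, which enters only that fit, was called as well. There S100A10 (adjusted p = 0.0505) and S100A4 (0.0609), and S100A11 between naïve-like and primed cells (0.0533), were no longer called. More genes were adjusted for in that fit. S100A4 could not be fitted under the stricter filter in 7 libraries, which it did not pass.

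Leaving out a line gave 302 to 527 genes called from primed to naïve-like cells, 219 to 342 from naïve-like to differentiated and 241 to 392 from primed to differentiated, where 2 to 5 of the 6 members were called (2 to 3 from primed to naïve-like, 0 from naïve-like to differentiated cells). Genes called between ESC and iPSC lines ran from 15 to 46 in primed, 7 to 31 in naïve-like and 4 to 112 in differentiated cells, where 112 was without S12. The cause was not tested. S100A16 between naïve-like and differentiated cells (0.06) ran from -0.09 without S6 to 0.22 without TRSK, and was also below 0 without CMK6 (-0.04) and L6. Depth limits S100A2 and S100A14.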
